A study of Homo sapiens with 8 samples.

Results

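The 8 genes described here handle cholesterol that a cell takes up, moves between its membranes and exports: SCARB1 and MYLIP at uptake, NPC1 and NPC2 in the lysosome, STARD4 in the cytosol, ABCA1 and ABCG1 in export, and NR1H2 as a regulator. They were matched by symbol to a pathway list that was drawn up with earlier results of these data known, and all 8 were present among 58870 gene rows. RNA sequencing covered 8 libraries of Panc 10.05, a cell line established from a human ductal adenocarcinoma of the pancreas. In 4 libraries the cells were labelled as controls and in the other 4 as ELAPOR1 overexpression. ELAPOR1 encodes a membrane protein of endosomes and lysosomes, and the series asks, by its title, about subtype and metabolic reprogramming. The labels do not say how ELAPOR1 was overexpressed. The promoter used, what the control cells carried, and whether the cells were a clone or a pool are not given in the sources used here. Whether replicates were separate cultures is not given either, so p-values measure only the spread between these libraries, which may be technical.

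Cholesterol enters most cells in lipoproteins taken up by receptors at the plasma membrane, is freed from esters in the lysosome, and leaves that compartment when NPC2 hands it to the membrane protein NPC1. Carriers such as STARD4 then distribute it between membranes. When sterols are low, the transcription factor SREBP2 raises genes of synthesis and uptake; when oxysterols accumulate, the liver X receptors (LXR) raise exporters such as ABCA1 and ABCG1 and the ligase MYLIP, which limits lipoprotein uptake.

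The libraries held 13765509 to 18128757 counts. Means are given ± SD over the 4 libraries of a group throughout, the log2 change is the fitted log2 fold change of ELAPOR1 minus control, and adjusted p-values are from edgeR. ELAPOR1, listed under its older symbol KIAA1324, was at 0.0554 to 0.244 CPM (counts per 1e+06 counts, scaled between libraries by TMM) in control and at 425.01 to 430.03 CPM in ELAPOR1 libraries. Of 6 ductal epithelial markers, 6 were measured, with summed levels of 11929 to 13196 CPM in control and 11159 to 11510 CPM in ELAPOR1 libraries. Of the 6 fibroblast, 6 endothelial and 6 acinar or islet markers, 4, 5 and 5 had at most 3 counts in any library, with COL1A2, DCN, LUM, CDH5, EMCN, PRSS1, CPA1, CELA3A, INS and CHGA at 0. Fibroblast markers summed to 2.95 to 4.32 CPM in control and 2.71 to 3.19 CPM in ELAPOR1 libraries, endothelial markers to 1.65 to 2.13 and 0.576 to 0.998 CPM, acinar and islet markers to 0 to 0.0599 and 0 to 0.246 CPM, and hepatocyte markers (TTR at 0, SERPINA1 at a log2 change of 0.93) to 7.67 to 9.48 and 14.7 to 17.5 CPM; the part of these in the results was not tested. PTPRC, which marks leukocytes, had at most 3 counts, and the leukocyte and macrophage list, of which CD68 and CSF1R were tested, summed to 89.8 to 96.6 CPM in control and 81.1 to 88.0 CPM in ELAPOR1 libraries. In bulk RNA, fewer cells expressing a gene and less RNA per cell cannot be told apart.

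Of the 8 genes, 7 passed the filter on low counts and were tested, and 4 of those 7 (STARD4, NPC1, NPC2 and ABCA1) were called lower with ELAPOR1 (edgeR quasi-likelihood test, adjusted p under 0.05 over all tested genes). SCARB1, MYLIP and NR1H2 were not called, and none of the 7 was called higher. Over all 13860 tested genes 44.7% were called, 22.1% lower and 22.6% higher, so calls were common throughout the table. The groups did not overlap for 4 of the 7 in the lower and 1 in the higher direction, against 39.2% of all tested genes in either direction (19.3% lower, 20% higher). The median log2 change of the 7 tested genes was -0.26, against 8.7e-04 over all tested genes. None of the 7 passed a test against a 1.5-fold change (glmTreat in edgeR; 0 at an unadjusted p under 0.05, against 4 in the main test). ABCG1, the untested gene, had at most 1 count per library.

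**Figure D1:**
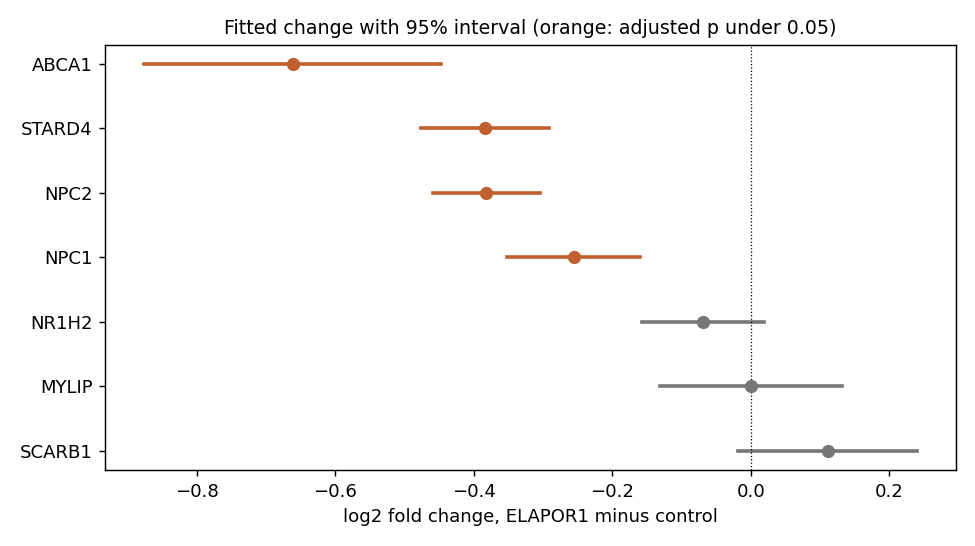
Fitted log2 change (ELAPOR1 minus control, x axis) of the 7 tested genes, with 95% intervals as lines; orange marks genes that were called. The intervals of ABCA1, STARD4, NPC2 and NPC1 lie below 0, and those of NR1H2, MYLIP and SCARB1 include it.

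The promoters of ABCA1, STARD4 and MYLIP are shown because ABCA1 had the largest fall of the 7 tested genes, STARD4 fell as well, and MYLIP, like ABCA1 known as an LXR target, did not pass the test. The windows are from RefSeq (GRCh38.p14), 5′ to 3′ on the strand of the gene, and hold the 250 bases before the annotated start: ABCA1 at chr9:104928156-104928405 (minus strand), STARD4 at chr5:111512536-111512785 (minus strand) and MYLIP at chr6:16128836-16129085 (plus strand). Capitals mark the matches described next, other than GC boxes.
ABCA1: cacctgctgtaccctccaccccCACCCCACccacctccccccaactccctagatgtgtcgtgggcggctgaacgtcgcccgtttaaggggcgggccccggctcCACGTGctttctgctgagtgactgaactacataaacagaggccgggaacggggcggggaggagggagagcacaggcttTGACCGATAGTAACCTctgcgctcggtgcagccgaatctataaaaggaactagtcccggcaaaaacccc
STARD4: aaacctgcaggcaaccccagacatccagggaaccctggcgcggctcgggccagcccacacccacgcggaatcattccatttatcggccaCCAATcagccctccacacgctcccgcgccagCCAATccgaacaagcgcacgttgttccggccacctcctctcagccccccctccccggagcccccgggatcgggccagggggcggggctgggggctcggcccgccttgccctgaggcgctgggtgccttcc
MYLIP: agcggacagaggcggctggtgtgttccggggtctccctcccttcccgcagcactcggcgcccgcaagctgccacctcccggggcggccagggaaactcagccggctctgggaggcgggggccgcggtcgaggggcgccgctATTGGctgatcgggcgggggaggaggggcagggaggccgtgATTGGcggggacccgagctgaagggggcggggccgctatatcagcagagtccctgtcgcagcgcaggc

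Motifs were searched on both strands of the 300-base windows of 6 of the 8 genes (MYLIP, STARD4, NPC1, NPC2, ABCA1 and NR1H2). These windows run from 250 bases before to 50 after the RefSeq start. That start differs from the gene boundaries given below, which are from GENCODE 29. Except for MYLIP, it lies inside those boundaries (NR1H2 at 50376457 in a span from 50329653, ABCA1 at 104928155 in a span to 104928237). Part or all of each of those windows is therefore sequence within the gene as positioned below. ABCA1 held a match to the LXR direct repeat (AGGTCA, 4 free bases, AGGTCA, with up to 2 mismatches) at -69 to -54 on the opposite strand, with 2 mismatches. Such a match occurred in 2.34% of all 35116 promoter windows and in no other window of these 6 genes. The ABCA1 window also held the sterol element core CACCCCAC at -228 to -221 (2.79% of all windows) and the E-box CACGTG at -147 to -142 (7.26% of all windows). CCAAT was found in the STARD4 window at -161 and -130, in the MYLIP window at -109 and -68 on the opposite strand, and in 1 of the NPC2 windows at -144 and -114 on the opposite strand, against 34.6% of all windows. The GC box GGGCGG was present in every window of the 6 genes and in 45.0% of all windows. A match describes letters in the window and is not evidence of binding. Sites outside these windows were not searched, so a window without a match does not show that the gene lacks a site. Any link between the matches and the changes was not tested.

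ABCA1 exports cholesterol and phospholipid to lipid-poor apolipoprotein A-I. It was at 14.5, 11.9, 13.3 and 10.6 CPM in control replicates 1 to 4 and at 8.65, 7.78, 7.70 and 7.67 CPM in ELAPOR1 replicates 1 to 4. Every ELAPOR1 library lay below every control library, the control values were the more scattered, and ELAPOR1 replicate 1 stood above the other ELAPOR1 libraries. The mean was 12.6 ± 1.68 CPM in control and 7.95 ± 0.470 CPM in ELAPOR1 libraries, a log2 change of -0.66 (SE 0.106, adjusted p = 3.7e-06) or a change of -36.8% (95% interval -45.5 to -26.7%). Of all tested genes, 3.80% had a more negative log2 change. ABCA1 (ENSG00000165029.16) lies on chromosome 9, 104781002 to 104928237 in GRCh38, and no other annotated exon overlaps its exons.

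ABCG1 (ENSG00000160179.18, chromosome 21, 42199689 to 42297244), which exports cholesterol to mature high-density lipoprotein, was not measurable. It had 1 count in control replicate 1, 1 count in ELAPOR1 replicate 2 and 0 in the other 6 libraries. The limit of 3 counts corresponds to 0.166 to 0.216 CPM per library, a limit for counting error only, and no fold change can be given. A log2 ratio of ABCG1 to ABCA1 with a pseudocount of 0.5 CPM was -4.66 ± 0.141 in control and -4.03 ± 0.132 in ELAPOR1 libraries (exact permutation p = 0.0286, two-sided, 0.0429 adjusted over 3 ratios). With ABCG1 at or near 0 in both groups, this number repeats the change of ABCA1 and says nothing of ABCG1.

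The list of export and lipoprotein assembly, which includes ABCA1 and ABCG1, was mostly below measurement. Of its 17 genes, 6 were tested, 3 were called lower and none higher, with a median log2 change of -0.29. Counts in this and the later lists stand beside 22.1% called lower and 22.6% higher over all tested genes. Without ABCA1, 2 of 5 tested genes were called lower and the median was -0.05. The 11 untested genes included APOE, APOC1 and PLTP, with at most 11, 12 and 13 counts in any library, and ABCG5 and ABCG8, with no count at all. The lower genes besides ABCA1 were relatives of the same transporter family. ABCA2, a transporter of late endosomes and lysosomes, fell (49.1 ± 4.13 CPM in control, 31.5 ± 1.75 with ELAPOR1, log2 change -0.64, adjusted p = 1.2e-10). ABCA5 fell (8.68 ± 0.875 CPM in control, 5.96 ± 0.430 with ELAPOR1, log2 change -0.54, adjusted p = 3.7e-04); its exons overlap those of ABCA10. ABCA7 was at -0.05 (adjusted p = 0.53) and ABCA3 at 0.07 (adjusted p = 0.47), and neither passed the test.

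STARD4, a soluble carrier that moves sterol between the plasma membrane, endosomes and endoplasmic reticulum, was at 102, 91.0, 96.5 and 87.1 CPM in control replicates 1 to 4 and at 71.0, 71.2, 74.1 and 72.7 CPM in ELAPOR1 replicates 1 to 4. The groups did not overlap, and the ELAPOR1 libraries were close together. From 94.2 ± 6.58 to 72.3 ± 1.44 CPM, the log2 change was -0.38 (SE 0.0452, adjusted p = 1.2e-08), a change of -23.4% (95% interval -28.1 to -18.3%). STARD4 (ENSG00000164211.13) lies on chromosome 5, 111496033 to 111512590, and shares 124 exon bases with STARD4-AS1 on the opposite strand, which was at 0.0300 CPM in control and 0.0946 CPM in ELAPOR1 libraries.

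Listed genes of sterol transfer were called in both directions, as were genes over the whole table. Of 23 listed genes, STARD4 included, 22 were tested and OSBPL7 was not analysed here. Of those tested, 5 were called higher and 7 lower, with a median log2 change of -0.05. Over all tested genes 22.6% were called higher and 22.1% lower. Without STARD4, 5 of 21 were called higher and 6 lower, with a median of -0.03. GRAMD1A, which carries cholesterol from the plasma membrane to the endoplasmic reticulum, fell (34.9 ± 2.99 CPM in control, 23.7 ± 2.02 with ELAPOR1, log2 change -0.55, adjusted p = 5.2e-08). OSBPL5, an oxysterol-binding protein relative, fell (29.4 ± 1.31 CPM in control, 20.6 ± 1.52 with ELAPOR1, log2 change -0.51, adjusted p = 1.7e-07). CAV1, the coat protein of cholesterol-rich caveolae, rose (201 ± 5.44 CPM in control, 286 ± 8.61 with ELAPOR1, log2 change 0.51, adjusted p = 5.1e-15). STARD3, which tethers late endosomes to the endoplasmic reticulum, was at -0.07 (adjusted p = 0.40) and did not pass the test.

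The lysosomal pair fell together. NPC2, the soluble protein that binds cholesterol in the lysosome, was at 147.4, 154, 147.5 and 164 CPM in control replicates 1 to 4 and at 114.8, 115.5, 123 and 117 CPM in ELAPOR1 replicates 1 to 4. Each ELAPOR1 value was below each control value. The means were 153 ± 7.79 and 118 ± 3.76 CPM, a log2 change of -0.38 (SE 0.0380, adjusted p = 3.6e-10) and a change of -23.3% (95% interval -27.3 to -19.0%). NPC2 (ENSG00000119655.10, chromosome 14, 74476192 to 74494177) shares 103 exon bases with ISCA2 on the opposite strand, whose log2 change was -0.11 (adjusted p = 0.14).

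NPC1, the membrane protein that receives cholesterol from NPC2, was at 70.5, 65.1, 62.4 and 64.7 CPM in control replicates 1 to 4 and at 55.0, 57.4, 54.0 and 53.8 CPM in ELAPOR1 replicates 1 to 4. The groups did not overlap, with control replicate 1 the highest library. The means were 65.7 ± 3.43 and 55.1 ± 1.66 CPM, a log2 change of -0.26 (SE 0.0474, adjusted p = 3.5e-05) and a change of -16.3% (95% interval -21.7 to -10.5%). NPC1 (ENSG00000141458.13) lies on chromosome 18, 23506184 to 23586898, and shares 604 exon bases (5.98% of its exon length) with RMC1 on the opposite strand. RMC1 was at 15.2 ± 1.51 CPM in control and 15.97 ± 0.836 CPM in ELAPOR1 libraries (log2 change 0.07, adjusted p = 0.55). Whether the counting used strand is not given in the sources used here, so reads of the shared stretch cannot be told apart.

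Whether NPC2 and NPC1 fell to the same extent was tested on their ratio in each library. The log2 ratio of NPC2 to NPC1 was 1.06, 1.23, 1.23 and 1.33 in control replicates 1 to 4 and 1.05, 1.002, 1.18 and 1.11 in ELAPOR1 replicates 1 to 4. The groups overlapped through control replicate 1. The difference of -0.13 did not pass the test (1.21 ± 0.115 against 1.09 ± 0.0766, exact permutation p = 0.114, two-sided, 0.114 adjusted over 3 ratios), which does not show that the falls were equal. Without control replicate 1 the groups did not overlap and the difference was -0.18, with an adjusted exact permutation p of 0.0571, the smallest that 3 against 4 libraries can give.

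**Figure D2:**
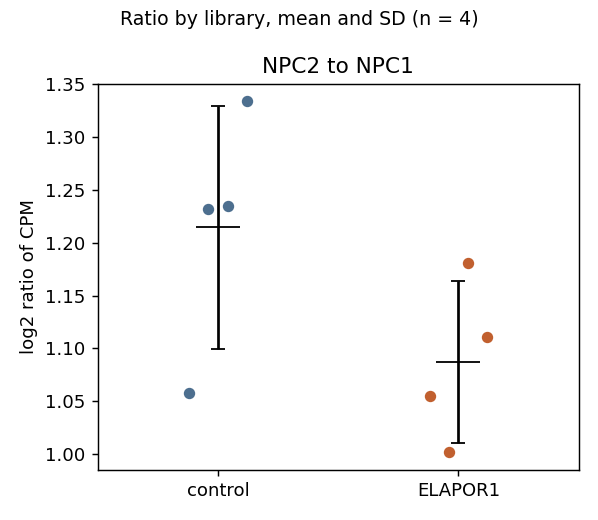
Log2 ratio of the CPM of NPC2 to that of NPC1 (y axis, not from 0) in each control and ELAPOR1 library (points), with the mean and SD of 4 libraries per group. The groups overlap, with control replicate 1 (1.06) among the ELAPOR1 libraries.

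Of 15 tested genes of lysosomal cholesterol release, NPC1 and NPC2 included, 6 were called lower and none higher, and their median log2 change was -0.10. Without NPC1 and NPC2, 4 of 13 were called lower and the median was -0.07. LIPA, the acid lipase that frees cholesterol from esters, fell (238 ± 5.78 CPM in control, 190 ± 3.64 with ELAPOR1, log2 change -0.33, adjusted p = 1.5e-10). LAMP1, a major lysosomal membrane protein, fell (181 ± 5.01 CPM in control, 145 ± 4.80 with ELAPOR1, log2 change -0.32, adjusted p = 2.1e-09). SCARB2, the receptor that carries glucocerebrosidase to lysosomes, fell (111 ± 6.42 CPM in control, 100 ± 3.42 with ELAPOR1, log2 change -0.15, adjusted p = 3.8e-03), with overlapping groups. LIPA shares exon bases with IFIT2 on the opposite strand.

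**Figure D3:**
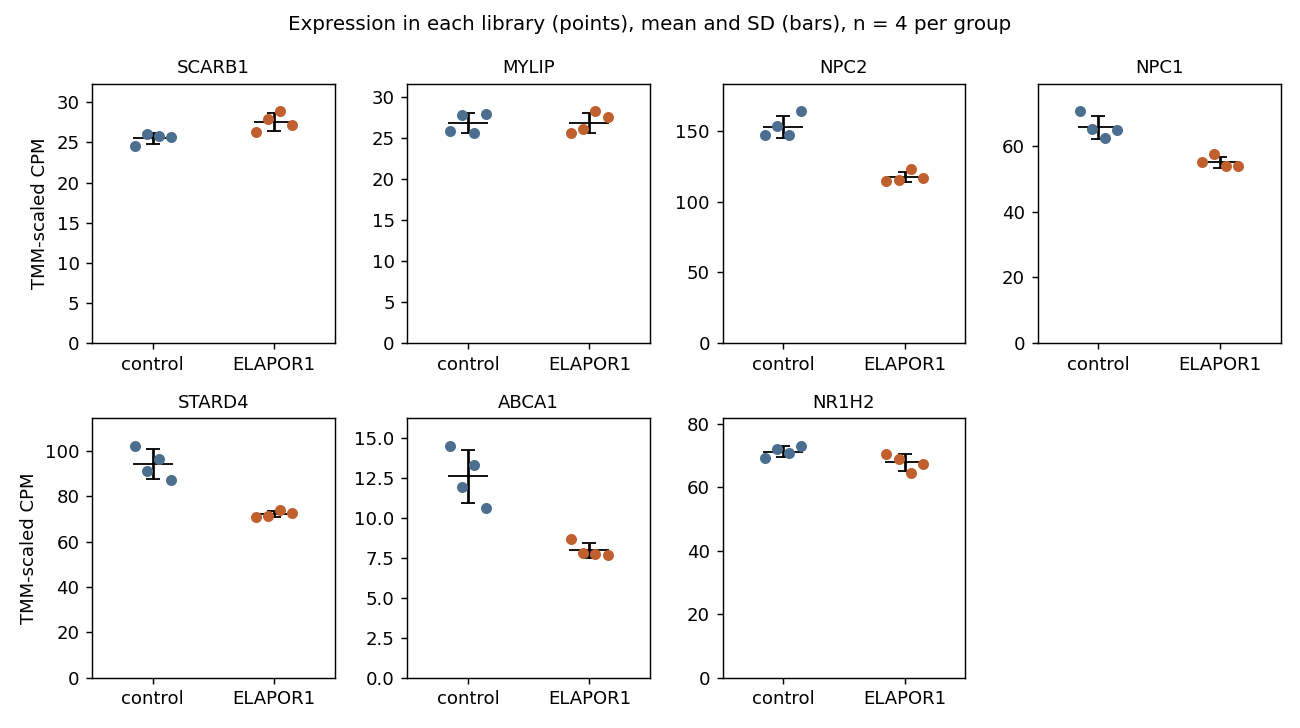
TMM-scaled CPM (y axis, from 0) of 7 genes in each control and ELAPOR1 library (points), with the mean and SD of 4 libraries. In the panels of NPC2, NPC1, STARD4 and ABCA1 every ELAPOR1 library lies below every control library; MYLIP and NR1H2 overlap, and SCARB1 does not.

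SCARB1 encodes the receptor for selective uptake of cholesteryl esters from high-density lipoprotein. It was at 24.5, 26.02, 25.8 and 25.7 CPM in control replicates 1 to 4 and at 26.3, 27.9, 28.9 and 27.2 CPM in ELAPOR1 replicates 1 to 4. The lowest ELAPOR1 library stood just above the highest control library, so the groups did not overlap, as for 20% of all tested genes in that direction. The difference between 25.5 ± 0.689 and 27.6 ± 1.10 CPM did not pass the test across all genes, with a log2 change of 0.11 (SE 0.0634, adjusted p = 0.16) and a 95% interval from -0.02 to 0.24. SCARB1 (ENSG00000073060.16) lies on chromosome 12, 124776856 to 124882668.

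MYLIP, a ubiquitin ligase that limits lipoprotein uptake, was at 25.9, 27.9, 25.7 and 27.98 CPM in control replicates 1 to 4 and at 25.6, 26.1, 28.3 and 27.6 CPM in ELAPOR1 replicates 1 to 4. The groups lay within the same range. Both means were 26.9 CPM (SD 1.24 and 1.26), the fitted log2 change was 3.7e-04 (SE 0.0645, adjusted p = 0.997), and the 95% interval of the change ran from -8.66 to 9.54%. MYLIP (ENSG00000007944.15) lies on chromosome 6, 16129125 to 16148248.

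Of 18 tested genes of lipoprotein uptake, 7 were called lower and none higher, with a median log2 change of -0.15; without SCARB1 and MYLIP the median was -0.16 and 7 of 16 were lower. LRP1, a large endocytic receptor for lipoproteins and other ligands, fell (25.2 ± 1.91 CPM in control, 21.1 ± 1.58 with ELAPOR1, log2 change -0.26, adjusted p = 3.8e-03). CD36 and OLR1, scavenger receptors, had at most 1 and 0 counts in any library.

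NR1H2 encodes LXR-beta. It was at 69.1, 71.9, 70.8 and 72.9 CPM in control replicates 1 to 4 and at 70.5, 68.9, 64.4 and 67.3 CPM in ELAPOR1 replicates 1 to 4. The groups overlapped through ELAPOR1 replicate 1 and control replicate 1. The log2 change was -0.07 (SE 0.0434, adjusted p = 0.20), with a 95% interval from -0.16 to 0.02. NR1H2 (ENSG00000131408.14) lies on chromosome 19, 50329653 to 50382982. NR1H3, which encodes LXR-alpha, was at 10.8 ± 0.954 and 9.21 ± 0.472 CPM, and its log2 change of -0.23 did not pass the test (adjusted p = 0.061).

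Among 17 tested LXR and RXR factors and cofactors, 5 were called higher and 5 lower, with a median of 0.03, both with NR1H2 and without it. The shares over all tested genes were 22.6% higher and 22.1% lower. TBL1X, a subunit of a nuclear receptor corepressor complex, fell (14.2 ± 0.299 CPM in control, 8.69 ± 1.04 with ELAPOR1, log2 change -0.71, adjusted p = 2.2e-07). NCOA1, a coactivator, rose from 28.6 ± 1.53 to 37.7 ± 1.65 CPM (log2 change 0.40, adjusted p = 1.4e-06).

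The list of LXR target genes moved in both directions. Of 14 tested genes, 5 were called higher and 4 lower, against 22.6% and 22.1% over all tested genes, and the median was 0.03. Without ABCA1 and MYLIP, 5 of 12 were called higher and 3 lower, with a median of 0.07. ABCA1 was among the lower genes, with SREBF1 (log2 change -0.43, adjusted p = 7.3e-10), SCD, the stearoyl-CoA desaturase, at -0.99 (adjusted p = 7.1e-25), and MERTK, a receptor for the uptake of dead cells, at -0.44 (adjusted p = 1.4e-04). LPCAT3, which builds polyunsaturated phospholipids, was at 0.44 (adjusted p = 2.9e-07) and ABCC3, an exporter of organic anions, at 0.66 (adjusted p = 6.4e-10). SREBF1 and LPCAT3, which were named after their values were seen, share exon bases with RAI1 and EMG1 on the opposite strand.

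The 8 SREBP2 reference genes were all called lower, with a median of -0.66; this list was chosen knowing that cholesterol synthesis genes fell in these libraries. INSIG1, which holds the SREBP complex in the endoplasmic reticulum, was at -0.72 (adjusted p = 8.0e-17), and IDI1, an isomerase of the mevalonate pathway, at -0.71 (adjusted p = 3.7e-17). The list of cholesterol esterification and ester hydrolysis joins opposite reactions, and 5 of its genes were tested. SOAT1, which esterifies cholesterol for storage, was higher (0.16, adjusted p = 4.7e-04), as was NCEH1, an ester hydrolase (0.11, adjusted p = 0.014). LIPA, the lipase already described in the lysosomal list, and DGAT1 (-0.50, adjusted p = 6.4e-08) were lower. These calls do not describe esterification alone. In oxysterol metabolism only 4 of 10 genes were tested. CH25H, CYP27A1, CYP46A1, CYP7B1, CYP7A1 and CYP11A1 were not, with at most 13 counts in any library, so most of this list was not measured. HSD3B7, a dehydrogenase of bile acid synthesis that shares exon bases with AC135048.4, was higher (0.31, adjusted p = 2.7e-06). EBP, a sterol isomerase, was lower (-0.58, adjusted p = 3.1e-14).

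**Figure D4:**
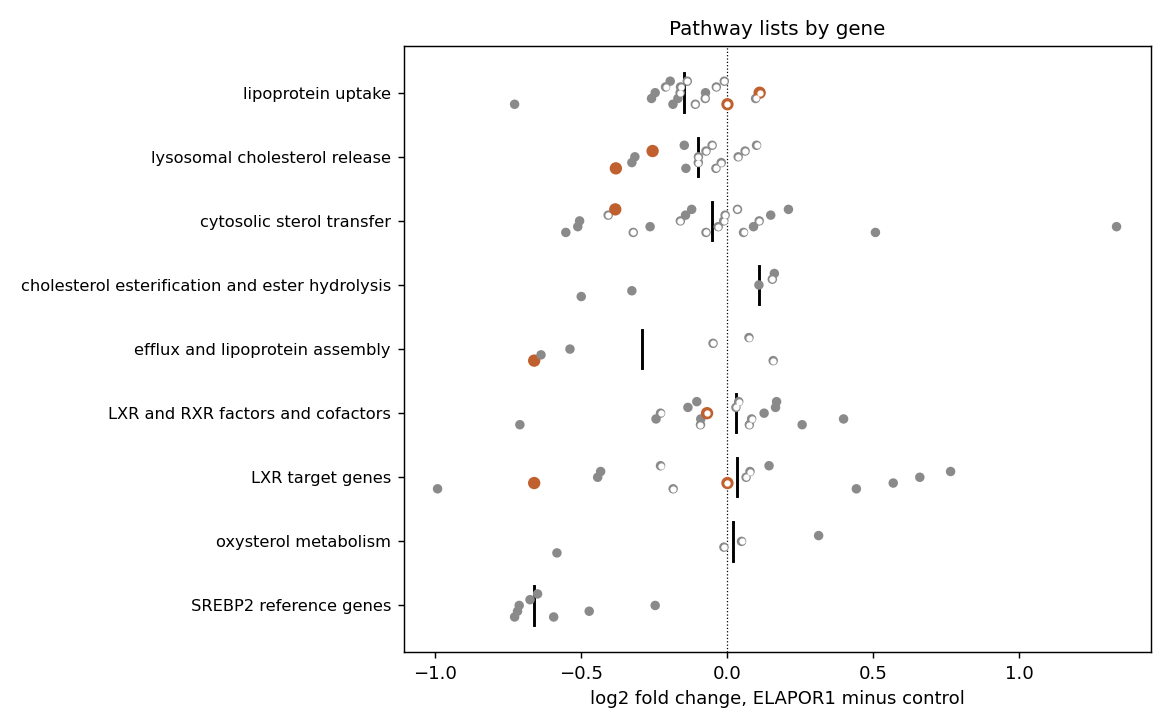
Log2 change (x axis, ELAPOR1 minus control) of every tested gene in 9 lists. The 7 tested genes of the 8 described here are in orange and the other genes in grey. An open centre marks a gene that was not called and a vertical bar the median of a list. The SREBP2 reference genes all lie below 0, while the LXR target genes spread to both sides; the point farthest to the right is OSBPL6 (log2 change 1.33).

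Levels of different genes were compared per length, as CPM per kb of exon. The length is that of all annotated exons of a gene together, not of the transcripts present in these cells. Another choice of length could change the order, and the spread between libraries does not cover that error. By this measure NPC2 was the highest of the 8 at 55.7 ± 2.84 CPM per kb in control and 42.8 ± 1.37 in ELAPOR1 libraries. NR1H2 followed at 19.0 ± 0.438 and 18.1 ± 0.688, STARD4 at 16.6 ± 1.16 and 12.7 ± 0.253, and MYLIP at 8.86 ± 0.409 and 8.86 ± 0.415 CPM per kb. NPC1 was at 6.50 ± 0.340 and 5.45 ± 0.164, SCARB1 at 3.30 ± 0.0890 and 3.56 ± 0.142, and ABCA1 at 1.11 ± 0.148 and 0.701 ± 0.0414 CPM per kb, with ABCG1 last. The order was the same in both groups, and within a group the libraries of neighbouring genes did not overlap. The closest neighbours were NR1H2 and STARD4 in control, where the lowest NR1H2 library was at 18.4 and the highest STARD4 library at 17.98 CPM per kb.

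**Figure D5:**
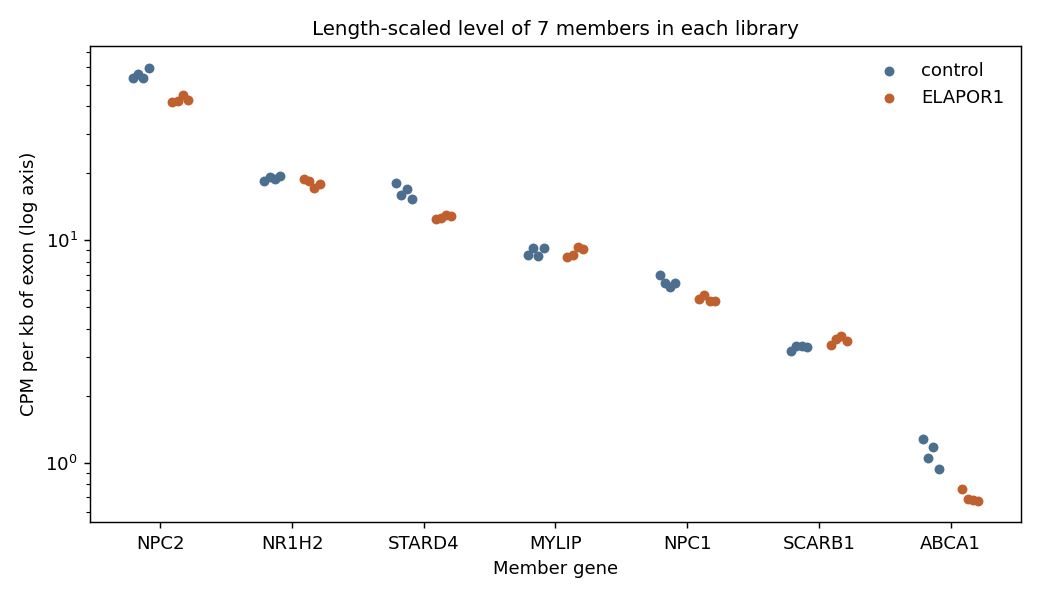
Level of 7 genes in CPM per kb of exon (log y axis) in each control and ELAPOR1 library (points), ordered by the control mean; ABCG1, with at most 1 count per library, is not drawn. The order from NPC2 to ABCA1 is the same in both groups.

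The 8 genes lie on 8 different chromosomes, and the genes around them were examined too. Over the 20 nearest tested genes whose mean reached 5 CPM (10 on each side), the median log2 change was -0.08 around STARD4, 0.02 around NPC1, 0.03 around NPC2 and 0.03 around ABCA1. For each of these 4 genes the neighbours' median was nearer to 0 than the gene's own change. The 4 genes were picked because they were called, so this comparison carries little weight, and a part of the region was not tested. Around STARD4, 7 of 20 neighbours were called lower and 3 higher. The counts were 3 and 2 around NPC1, 4 and 7 around NPC2, and 2 and 3 around ABCA1. Over all tested genes, of any level, 22.1% were called lower and 22.6% higher. Around NR1H2 the median was 0.14, with 4 neighbours called lower and 10 higher, while NR1H2 itself was at -0.07.

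The profile of ABCA1, the called gene with the largest change, was compared with that of all tested genes whose mean reached 5 CPM. The measure was the root mean square difference over the 8 libraries of log2(CPM + 0.5) centred on each gene's control mean. The nearest gene was SC5D, a desaturase of late cholesterol synthesis, at 0.0948, with 127 ± 5.38 CPM in control and 81.9 ± 1.66 CPM in ELAPOR1 libraries. It was followed by SLC39A10, a zinc importer, at 0.0966 and PDP1, a mitochondrial phosphatase of pyruvate dehydrogenase, at 0.102. The log2 changes of these 3 genes were -0.63, -0.71 and -0.63, against -0.66 for ABCA1. Because profiles are centred on the control mean, the measure favours genes with a similar log2 change. Shared regulation was not tested.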

How the data were processed

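RNA was sequenced from 4 control and 4 ELAPOR1 libraries of Panc 10.05. The authors deposited a table of expected counts per gene without scaling between libraries, as its file label and values show (15% of nonzero values not whole). The submitters' processing notes name cutadapt, STAR, RSEM, DESeq2 and hg38; versions, annotation release and use of strand are not given in the sources used here. All 8 columns matched a sample title.

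After rounding, edgeR 4.0.16 (R 4.3.3) was run on the counts (filterByExpr, TMM, robust glmQLFit and glmQLFTest, two-sided, no covariate), with Benjamini-Hochberg adjustment over 13860 genes. The standard error is the log2 fold change divided by the square root of F. Ratios between genes used a two-sided exact permutation test. Positions, exon lengths and overlaps are from GENCODE 29 (GRCh38), matched without version numbers, which differed from the table's for 6 of the 8 genes. The members and lists were chosen with earlier results of these data known. The genes named are the 8 members, ELAPOR1, up to 3 other called genes per list with the largest change and a mean of at least 5 CPM, and the 3 genes with the profile nearest to the most changed member; others were named after their values were seen, and some genes and 1 of 3 ratios are not reported here. Alternatives were other scalings, DESeq2 1.42.0, limma-voom (limma 3.58.1), 2 other filters, a replicate block, each library left out, ELAPOR1 removed, a threshold of 0.01, a test against a 1.5-fold change and, added after seeing the data, removal of GC and length trends. The procedure was tested on simulated counts in which every gene had the same variability. That test does not cover differences in spread between genes or libraries. Replicates differed by more than sampling noise (chi-square per degree of freedom 1.94 to 6.12). The range was 2.14 to 6.12 between control libraries, highest for replicates 1 and 4, and 1.94 to 2.22 between ELAPOR1 libraries.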

Additional observations from a re-analysis of the deposited data

Results flagged for a closer look

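In 4 of 76 groups of 4 libraries examined, 1 library was separated from its group by more than Dixon's 95% critical value; chance flags about 1 in 20 groups, or 3.8 here. For ABCA1, ELAPOR1 replicate 1 had 8.65 CPM against 7.67 to 7.78 CPM in the remaining ELAPOR1 libraries, all below the control range. For HSD3B7, control replicate 1 had 56.0 CPM against 64.4 to 65.3 CPM in the remaining controls. For ABCA5, ELAPOR1 replicate 2 had 5.32 CPM against 6.11 to 6.26 CPM in the remaining ELAPOR1 libraries. For PDP1, ELAPOR1 replicate 4 had 304 CPM against 297.1 to 297.5 CPM in the remaining ELAPOR1 libraries. The labels give no batch or date, and the cause of these gaps was not tested.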

How the results depend on the processing

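STARD4, NPC1, NPC2 and ABCA1 remained called lower under 19 of 20 alternatives, with log2 fold changes of -0.42 to -0.35, -0.30 to -0.23, -0.41 to -0.35 and -0.73 to -0.59, and edgeR, DESeq2 or limma adjusted p-values of at most 1.1e-06, 4.1e-04, 8.8e-08 and 6.8e-05. The exception was the test against a 1.5-fold change (glmTreat in edgeR), which called 0 of the 7 tested genes (also 0 at an unadjusted p-value under 0.05, with ABCA1 at 0.0904) and 215 genes in all; the fitted values -0.38, -0.26, -0.38 and -0.66 are the same there. SCARB1 stayed above 0 and NR1H2 below 0 without a call. MYLIP changed sign around 0: -2.9e-04 with the DESeq2 test, -0.0010 with DESeq2 size factors, -0.0080 with upper-quartile scaling, -5.2e-04 with at least 10 counts in every library, -0.0016 without a filter, -4.1e-04 with the replicate block, and -0.023 to 0.024 with a library left out. Expression gave no sign of pairing by replicate number (correlations of same-numbered libraries from -0.027 to 0.025, and 1 of 8 libraries closest to its own number). This does not show that the libraries were unpaired. The replicate block called 5926 genes. Paired by number, the ratio of ABCG1 to ABCA1 (0.63) had an adjusted exact permutation p of 0.125, the smallest 4 pairs can give; with a library left out it was 0.57 to 0.69, with too few libraries to pass the threshold after adjustment (smallest adjusted p 0.0571). With a library left out, the difference in the log2 ratio of NPC2 to NPC1 was -0.18 (without control replicate 1, where the groups no longer overlapped and the adjusted exact permutation p was the same minimum) to -0.088 (without control replicate 4), in a design that cannot pass the threshold. ABCG1, APOE and other genes with few counts cannot be judged at this depth.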
